A study of Mus musculus with 4 samples.

Results

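The genes described here are 10 genes of autophagy and mitophagy, Map1lc3b, Gabarapl1, Becn1, Atg5, Atg7, Atg12, Ulk1, Wipi1, Bnip3 and Pink1. They were taken by name from a table of 27027 gene entries, and each of the 10 symbols matched 1 entry. Acetaminophen (APAP), an analgesic that injures hepatocytes when overdosed, was given to C57BL/6 mice (substrain C57BL/6J in the methods of the study) by intraperitoneal injection at 300 mg/kg, and control mice received 0.9% NaCl. Livers were taken after 24 h or 48 h. All mice were male and 9 to 12 weeks old, and all of them, the controls included, had been fasted for 10 h before the injection and were then fed freely. Liver RNA was pooled in equal shares before library preparation, from 6 mice in each control pool and 7 mice in each APAP pool, so that every group is 1 library and the spread between mice cannot be seen.

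Autophagy encloses cytoplasm in a double-membrane vesicle, the autophagosome, which fuses with the lysosome for degradation of its cargo. A kinase complex built on ULK1 starts the process, a lipid kinase complex that holds Beclin 1 marks the forming membrane with phosphatidylinositol 3-phosphate (PI3P), WIPI proteins bind this lipid, and ubiquitin-like conjugation (ATG7, ATG12, ATG5) attaches LC3 and GABARAP proteins to the membrane. Mitophagy is the removal of mitochondria by this route, either through PINK1 and the ubiquitin ligase Parkin or through receptors on the mitochondrial surface such as BNIP3. In liver, autophagy is known as a response to fasting, and in APAP intoxication it is known for the removal of damaged mitochondria and of APAP-protein adducts. Most of its steps are controlled on proteins, and transcript levels do not measure autophagic flux.

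MACE (massive analysis of cDNA ends) reads a fragment from the 3′ end of each polyadenylated transcript, so that its counts were not scaled to transcript length. The libraries held 4859661 to 5698778 reads counted on genes. Values given as normalized counts are reads over the size factor of the library, computed by the median-of-ratios method of DESeq2. Each fold is the APAP pool over the control pool of the same time, with its 95% exact interval, which covers counting error alone. As each group is a single library, no replicate check exists and no p-value is given. Dividing by library totals instead raises every fold by 0.19 at 24 h and by 0.27 at 48 h on the log2 scale, and directions that turn with it are named. Albumin took 4.27% to 5.15% of the reads of a library, and the summed hepatocyte markers were 1.12 times lower after APAP at 24 h and 1.06 times lower at 48 h. Summed over 9 pericentral hepatocyte markers, normalized counts were 21318 and 21180 in the controls against 7241 (24 h) and 5717 (48 h) after APAP. The summed periportal markers were 1.42 and 1.18 times lower, respectively, with 3 of 8 markers higher at 24 h and 4 of 8 at 48 h. Neutrophil markers (6 of 7 matched) summed to 18.2 and 19.3 in the control pools and to 215 and 171 after APAP. Csf3r, Cxcr2 and Mmp8 were at 0 in at least 1 library. The 10 macrophage and monocyte markers summed to 1047 and 1065 in the control pools and to 1360 and 2146 after APAP. Of these 10 markers, 6 were higher at 24 h and 8 at 48 h. Between APAP and control, the summed markers of endothelial cells differed 1.09-fold and 1.04-fold at 24 h and 48 h, those of stellate cells and fibroblasts 1.27-fold and 2.02-fold, and those of cholangiocytes 2.78-fold and 1.67-fold. Only 2 of the 6 cholangiocyte markers were higher at 48 h, with a median log2 fold of -0.72. The 8 lymphocyte markers summed to only 40.9 and 35.4 normalized counts in the control pools and to 27.3 and 27.2 after APAP. These sums were 1.5 and 1.3 times lower after APAP, and no interval was computed for them. Cftr among the cholangiocyte markers and Cd79a, Ms4a1, Nkg7, Gzma and Cd8a among the lymphocyte markers were at 0 in at least 1 library. The part of these cell types in the values below was not tested. In whole-liver RNA, fewer cells of a type and less RNA per cell cannot be told apart.

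None of the 10 genes differed by at least 2-fold from its control at 24 h or 48 h, a fold that 4.89% of the 12113 genes that averaged 10 or more normalized counts exceeded upwards and 4.99% downwards at 24 h, with an interval off 1. At 48 h these shares were 4.79% upwards and 4.99% downwards. All 10 genes were above the minimum of 10 normalized counts. Their folds ranged from 0.516 (Wipi1) to 1.44 (Map1lc3b) at 24 h and from 0.724 (Wipi1) to 1.05 (Map1lc3b) at 48 h. The median log2 fold of the 10 genes was -0.18 at 24 h and -0.22 at 48 h, against 0.01 and -0.02 over the 12113 genes. With library totals the median of the 10 genes turned to 0.01 and 0.04, while that of all genes was 0.19 and 0.25.

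By level, the genes formed 3 tiers. Pink1 was the most abundant in all 4 libraries, with 694 to 819 normalized counts. Gabarapl1, Map1lc3b and Bnip3 followed, and their ranges over the 4 libraries overlapped each other between 381 and 676. The other 6 genes lay at 42.2 to 198 normalized counts, in the order Atg7, Atg5, Becn1, Wipi1, Ulk1 and Atg12, and each overlapped its neighbours in this order.

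**Figure D1:**
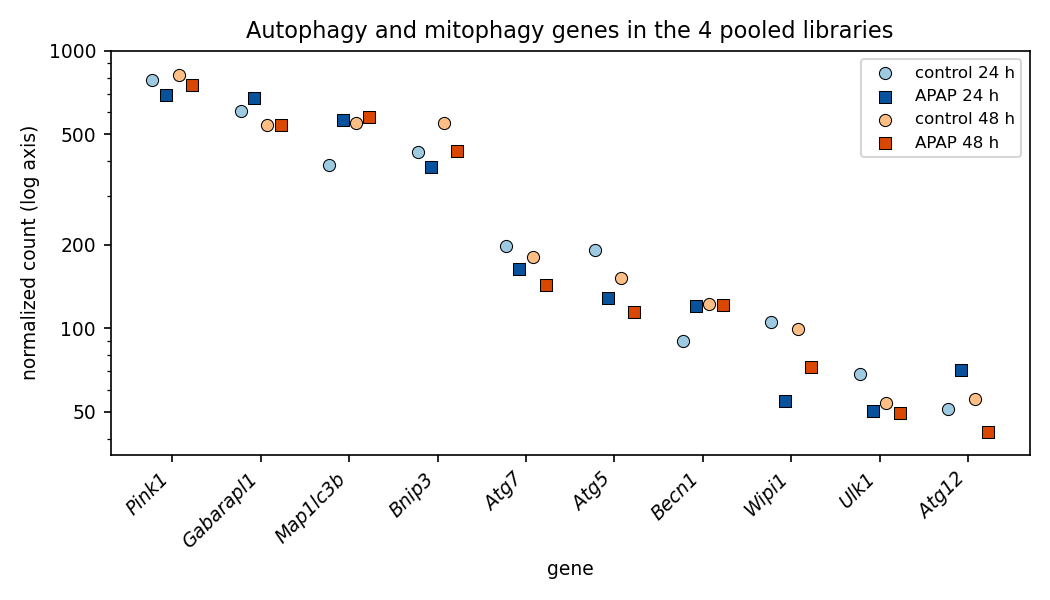
Normalized count (log axis) of each of the 10 genes in the 4 pooled libraries, 1 point per library, circles for control and squares for APAP. Wipi1, with 54.5 and 72.2 in the APAP pools and 106 and 99.7 in the control pools, shows the widest gap between treatments at 24 h, while for Map1lc3b the 24 h control pool (389) stands apart from the other 3 libraries.

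Ulk1 encodes the kinase that starts autophagosome formation (chr5:110784488-110810097, minus strand, GRCm38). At 24 h it had 68.2 normalized counts in the control and 50.25 in the APAP pool, and at 48 h 53.6 and 49.7. Both APAP libraries were below both control libraries, by less than the counting error. The fold was 0.737 (95% interval 0.505 to 1.07) at 24 h and 0.927 (0.618 to 1.39) at 48 h, and at 48 h library totals turned it to 1.11. A difference of Ulk1 was not detectable at its 50 to 60 reads per library.

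Becn1 encodes Beclin 1, a subunit of the lipid kinase complex that nucleates the membrane (chr11:101285952-101302286, minus strand). It had 89.8 normalized counts in the 24 h control pool, 122 in the 48 h control pool, and 120.1 and 121 after APAP. The 24 h control library was thus the low one, and the other 3 differed by little. At 24 h the fold was 1.34 (1.01 to 1.78) with size factors and 1.52 (1.15 to 2.03) with library totals, and at 48 h it was 0.990 (0.763 to 1.28) with size factors and 1.19 with library totals. Set against the 48 h control pool, the 24 h APAP pool gave 0.982 (0.762 to 1.27). The control pools, neither of which had received APAP, differed by 1.36-fold (1.01 to 1.84). The 3′ end of Becn1 overlaps Cntd1 on the opposite strand, an entry with 0 reads in all 4 libraries. Whether reads were counted by strand is not given in the sources used here, and without it such overlapping genes cannot be told apart.

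Wipi1 encodes a protein that binds PI3P on the forming autophagosome (chr11:109573331-109611967, minus strand). Normalized counts were 106 and 99.7 in the control pools at 24 h and 48 h and 54.5 and 72.2 after APAP. Both APAP libraries lay below both control libraries, and the control pools differed by less than the counting error (fold 0.943, 0.700 to 1.27). Wipi1 had a fold of 0.516 (0.369 to 0.716) at 24 h and, at 48 h, 0.724 (0.528 to 0.990). At 24 h the interval also lay below 1 with library totals (0.587, 0.420 to 0.815) and against the 48 h control pool (0.547, 0.391 to 0.760). At 48 h it reached 1 with library totals (0.870, 0.635 to 1.19). With size factors, Wipi1 at 24 h was the only value of the 10 genes past a fold of 1.5 with an interval off 1. Over all genes, 10.8% were lower and 9.75% higher by this rule at 24 h, and 10.9% were lower and 8.71% higher at 48 h. With library totals, Map1lc3b, Becn1 and Atg12 were higher by this rule at 24 h and Wipi1 was lower, where 16.7% of all genes were higher and 6.59% lower. At 48 h none of the 10 genes was past it with library totals, against 19.0% of all genes higher and 5.6% lower.

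**Figure D2:**
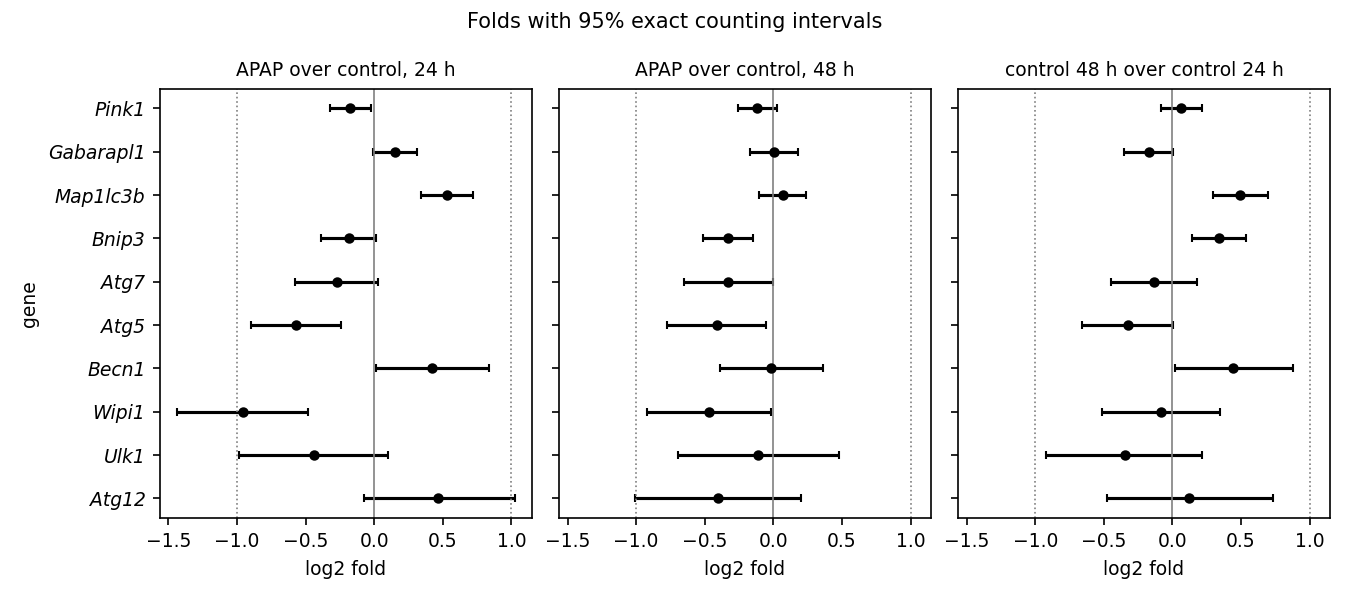
Log2 fold of each of the 10 genes between pools, APAP over control at 24 h (left), at 48 h (middle) and control at 48 h over control at 24 h (right). Points are the folds, bars the 95% exact counting intervals, and dotted lines mark 2-fold. Every point lies inside the dotted lines in all 3 comparisons, and Map1lc3b and Becn1 lie to the right of 0 at 24 h and between the control pools, but near 0 at 48 h.

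Atg5, Atg7 and Atg12 encode the core of the conjugation system. ATG7 is the E1-like enzyme that activates ATG12 and the LC3 family, and ATG12 is joined to ATG5. Atg5 (chr10:44268358-44364291, plus strand) had 191 and 152 normalized counts in the control pools and 129 and 114 after APAP. Both APAP libraries were below both control libraries. Its fold was 0.673 (0.537 to 0.844) at 24 h and, at 48 h, 0.751 (0.585 to 0.964). With library totals it was 0.766 (0.611 to 0.961) and 0.903 (0.703 to 1.16). The control pools differed by 0.797 (0.633 to 1.0), and against the 48 h control pool the fold at 24 h was 0.845 (0.667 to 1.07).

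Atg7 (chr6:114643097-114860614, plus strand, counted in an entry that also lists the pseudogene Gm19040 within it) had 198 and 180.1 normalized counts in the control pools and 163.5 and 143.5 after APAP. It was again lower in both APAP libraries than in both control libraries. The fold was 0.827 (0.670 to 1.02) at 24 h and, at 48 h, 0.796 (0.636 to 0.997), and with library totals it was 0.941 and 0.958. Atg12 (chr18:46730144-46741580, minus strand) had 51.2 and 55.8 in the control pools, 70.7 in the 24 h APAP pool and 42.2 in that at 48 h. The APAP libraries were thus the highest and the lowest of the 4. Neither fold was off 1 with size factors, 1.38 (0.95 to 2.03) at 24 h and, at 48 h, 0.757 (0.496 to 1.15), whereas with library totals the fold at 24 h was 1.57 (1.08 to 2.31). The fold of Atg12 at 48 h over that at 24 h was 0.548 (0.308 to 0.973). This ratio had an interval below 1 for 2 of the 10 genes, Atg12 and Map1lc3b, and above 1 for 0, against 11% and 8.85% of all genes.

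Map1lc3b encodes LC3B, the protein most used to mark autophagosomes (chr8:121590361-121598760, plus strand). It had 389 normalized counts in the 24 h control pool, 548 in the 48 h control pool, 561 in the 24 h APAP pool and 575 in the 48 h APAP pool. Both APAP libraries were above both control libraries, but the 48 h control pool was far closer to them than to the other control. The fold was 1.44 (1.27 to 1.65) at 24 h and, at 48 h, 1.05 (0.931 to 1.18). The control pools differed by 1.41-fold (1.23 to 1.62), about as much as APAP and control at 24 h. Against the 48 h control pool, the 24 h APAP pool gave 1.02 (0.911 to 1.15). With library totals, the fold was 1.64 (1.44 to 1.88) at 24 h and, at 48 h, 1.26 (1.12 to 1.42). The entry of Map1lc3b also lists Gm20388, a long annotated gene that spans it, and its 3′ end overlaps Zcchc14 on the opposite strand. The end of 1 of its 4 coding transcripts holds 108 to 113 bases found, at 95.4% to 96.4% identity, in transcripts of 54 other genes, so that some reads could have been exchanged.

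Gabarapl1 encodes another member of the same protein family (chr6:129533160-129542346, plus strand). It had 608 and 539 normalized counts in the control pools and 676 and 541 after APAP, with the control at 24 h between the APAP libraries. The fold was 1.11 (0.995 to 1.24) at 24 h and, at 48 h, 1.0 (0.888 to 1.13). Library totals put it at 1.27 (1.13 to 1.42) and 1.21 (1.07 to 1.36).

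Bnip3 encodes a mitophagy receptor of the outer mitochondrial membrane that is induced by low oxygen (chr7:138890836-138909519, minus strand). It had 433 normalized counts in the 24 h control pool and 548 in that at 48 h, and 381 and 436 after APAP. The groups overlapped, as the 48 h APAP pool lay just above the 24 h control pool. The fold was 0.879 (0.765 to 1.01) at 24 h and, at 48 h, 0.796 (0.700 to 0.904), with library totals 1.0 and 0.957 (0.842 to 1.09). The control pools differed by 1.27-fold (1.11 to 1.45), and the 48 h APAP pool against the 24 h control pool gave 1.01 (0.877 to 1.16). The 3′ end of Bnip3 is shared, at 95.1% or more over at least 165 bases, with 6 other annotated genes, and those of them with an entry had at most 3 reads in a library.

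Pink1 encodes the mitochondrial kinase that marks depolarized mitochondria for Parkin (chr4:138313409-138326307, minus strand). It had 783 and 819 normalized counts in the control pools and 694 and 756 after APAP. Both APAP libraries were below both control libraries, and all 4 lay close together. The fold was 0.886 (0.800 to 0.982) at 24 h and, at 48 h, 0.922 (0.835 to 1.02) with size factors. With library totals it turned to 1.01 (0.910 to 1.12) and 1.11 (1.0 to 1.23).

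In all, both APAP libraries were below both control libraries for 5 of the 10 genes (Atg5, Atg7, Ulk1, Wipi1 and Pink1), a pattern found in 26.3% of the 12113 genes. Map1lc3b was the 1 gene with both APAP libraries above both controls, against 24.8% of all genes. With library totals Atg5 and Wipi1 remained below, against 13.7% of all genes, and Map1lc3b, Gabarapl1 and Becn1 were above, against 44.2%. With size factors, an interval below 1 was found for 3 of the 10 genes at 24 h (Wipi1, Atg5 and Pink1) and for 4 at 48 h (Wipi1, Atg5, Atg7 and Bnip3), where 18.3% and 18.9% of all genes had one. An interval above 1 was found for 2 genes at 24 h (Map1lc3b and Becn1) and for 0 at 48 h, against 15.4% and 13.9% of all genes. The balance turned with library totals. The interval was then below 1 for 2 genes at 24 h (Atg5 and Wipi1) and 0 at 48 h, against 11.8% and 9.93% of all genes. It was above 1 for 4 genes at 24 h (Map1lc3b, Gabarapl1, Becn1 and Atg12) and 3 at 48 h (Map1lc3b, Gabarapl1 and Pink1), against 27.0% and 29.3% of all genes. Pericentral hepatocyte markers were lower in both APAP pools as well (2.94 and 3.70 times in sum), and their part in the lower values of Wipi1, Atg5 and Atg7 was not tested.

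The 2 control pools give the only comparison without APAP. They were taken at different times after fasting and injection, so they are not replicates and do not measure the spread between pools. Between them, 0 of the 10 genes differed 2-fold or 1.5-fold with an interval off 1, against 3.21% and 7.6% of all genes. An interval off 1 was found for 3 of the 10 genes (Map1lc3b, Bnip3 and Becn1), against 18.9% of all genes. All 3 were higher in the 48 h control pool.

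Promoters of Atg5, Atg7 and Bnip3 are shown because they hold the E-box CACGTG, the core of the site bound by TFEB, a regulator of lysosomal and autophagy genes, and by many other basic helix-loop-helix factors. The motif was chosen after the folds had been seen. RefSeq promoters (GRCm38.p6, 250 bases before to 50 after the annotated start) were at hand for 8 of the 10 genes, all but Becn1 and Atg12. Searched on both strands, which read alike for this palindrome, the E-box was in the promoters of 3 genes, Atg5, Atg7 and Bnip3, and in 7.15% of 32851 promoters of all genes. It begins 14 bases before the start in Atg5, 132 bases before it in Atg7 and 108 bases before it in Bnip3. A match is a description of the letters and not a site of binding. The 100 bases around each E-box follow, 5′ to 3′ on the strand of the gene, with the E-box in capitals. They lie at chr10:44268278-44268377 (plus strand), chr6:114670917-114671016 (plus strand) and chr7:138909562-138909661 (minus strand).
Atg5: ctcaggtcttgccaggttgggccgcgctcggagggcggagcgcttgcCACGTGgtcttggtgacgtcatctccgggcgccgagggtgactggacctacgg
Atg7: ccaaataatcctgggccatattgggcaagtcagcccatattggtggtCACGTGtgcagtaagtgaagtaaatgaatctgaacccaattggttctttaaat
Bnip3: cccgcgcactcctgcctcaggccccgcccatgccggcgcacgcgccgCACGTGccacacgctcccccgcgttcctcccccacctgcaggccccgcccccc

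The folds of these 3 genes lay between 0.673 and 0.879 at both times with size factors. Those of Pink1, Ulk1 and Wipi1, whose promoters hold no CACGTG in the same window, were also below 1, between 0.516 and 0.927. Those of Map1lc3b and Gabarapl1, without CACGTG there either, were between 1.0 and 1.44. The Atg7 window lies within the span that GENCODE M21 gives the gene, as the RefSeq start used here is downstream of the GENCODE start. The window begins at chr6:114670917 and the GENCODE gene at chr6:114643097. Bases before the GENCODE start were not searched, so the E-box counted for Atg7 rests on this internal start alone.

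Beyond the 10 genes, 86 further genes of the pathway were listed by role, of which 85 matched an entry and 84 averaged 10 or more normalized counts. At 24 h, 1 of the 84 genes was at least 2-fold higher with an interval off 1 and 2 were at least 2-fold lower, against 4.89% and 4.99% of all genes. At 48 h, again 1 was higher and 2 were lower, against 4.79% and 4.99% of all genes. Past 1.5-fold, 8 were higher and 4 lower at 24 h, against 9.75% and 10.8% of all genes, and 5 were higher and 6 lower at 48 h, against 8.71% and 10.9%. The median log2 fold was 0.03 at 24 h and -0.04 at 48 h. It was 0.22 and 0.21 with library totals, a scaling that shifts every gene alike.

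Among the genes of initiation, Ulk2, a kinase related to ULK1, had a fold of 0.848 (0.688 to 1.05) at 24 h and, at 48 h, 0.687 (0.559 to 0.845). With library totals the value at 48 h was 0.826 (0.672 to 1.02). For Ambra1, a regulator of the Beclin 1 complex, the 4 libraries held 141 to 146 normalized counts, and its folds were 1.03 and 1.0.

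Atg2a encodes a lipid transfer protein that feeds the growing membrane, and it was the gene past 2-fold upwards at 24 h. It had 27.3 and 40.7 normalized counts in the control pools and 64.7 and 52.5 after APAP. Both APAP libraries were above both controls. The fold was 2.37 (1.48 to 3.93) at 24 h and, at 48 h, 1.29 (0.839 to 2.00), and against the 48 h control pool the 24 h APAP pool gave 1.59 (1.06 to 2.41). Vmp1, an endoplasmic reticulum protein needed for autophagosome formation, had 2805 and 2420 normalized counts in the control pools and 3345 and 3476 after APAP. Its fold was 1.19 (1.13 to 1.26) at 24 h and, at 48 h, 1.44 (1.36 to 1.51). The entry of Vmp1 also lists Mir21a, which lies at its 3′ end, so that reads of the miR-21 precursor and of Vmp1 cannot be told apart.

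In the conjugation group, Atg16l2 was at least 2-fold lower at both times. ATG16L2 is a relative of ATG16L1, which directs the ATG12-ATG5 conjugate to the membrane. Atg16l2 had 85.3 and 67.6 normalized counts in the control pools and 24.7 and 25.3 after APAP. All APAP values were far below all controls, with a fold of 0.290 (0.182 to 0.450) at 24 h and, at 48 h, 0.375 (0.230 to 0.597). With library totals it was 0.330 and 0.451, both with intervals below 1. Its 3′ end overlaps Fchsd2 on the opposite strand. Atg16l1 itself, chosen for this contrast after its values were seen, had a fold of 1.86 (1.23 to 2.88) at 24 h and, at 48 h, 1.36 (0.95 to 1.97). Its control pools held 37.5 (24 h) and 55.8 (48 h) normalized counts. Against the 48 h control pool, the 24 h APAP pool gave 1.25 (0.874 to 1.81), an interval that holds 1. Atg3, the E2-like enzyme that passes LC3 to the membrane lipid, had folds of 0.678 (0.545 to 0.843) and 0.718 (0.580 to 0.889). With library totals these were 0.772 (0.620 to 0.960) and 0.864 (0.697 to 1.07).

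Gabarap was the most abundant of the remaining LC3 and GABARAP genes, with 1372 to 1617 normalized counts. Its folds were 0.958 (0.894 to 1.03) and 0.919 (0.854 to 0.990), and library totals turned them to 1.09 and 1.11. Map1lc3a, named after its values were seen, had a fold of 1.23 (1.08 to 1.40) at 24 h and, at 48 h, 1.80 (1.58 to 2.05).

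Sqstm1 encodes p62, a cargo receptor that is also a target of the antioxidant factor NRF2. It had 1514 and 1308 normalized counts in the control pools and 2486 and 1232 after APAP. The 24 h APAP pool stood above the other 3 libraries. The fold was 1.64 (1.54 to 1.75) at 24 h, and at 48 h it was 0.942 (0.871 to 1.02) with size factors and 1.13 with library totals. The ratio of the fold at 48 h to that at 24 h was 0.574 (0.518 to 0.636). The 3′ end of Sqstm1 overlaps Mrnip on the opposite strand.

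Of the mitophagy genes, Fkbp8, a receptor of the outer mitochondrial membrane, was the most abundant, and its fold was 0.725 (0.669 to 0.786) at 24 h and, at 48 h, 0.756 (0.699 to 0.817). Park2 and Mfn2 were named after their values were seen, as the partner of Pink1 and a substrate of Parkin. Park2, which encodes Parkin, had a fold of 1.61 (1.22 to 2.15) at 24 h and, at 48 h, 1.31 (0.965 to 1.79). Mfn2, which encodes a mitochondrial fusion protein, had a fold of 0.620 (0.506 to 0.760) and 0.567 (0.460 to 0.697). Among the genes of selective degradation of the endoplasmic reticulum, Sec62, a receptor for this process, had folds of 0.844 (0.760 to 0.938) and 0.909 (0.816 to 1.01). Library totals put the fold at 24 h at 0.961 (0.865 to 1.07) and turned that at 48 h to 1.09.

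Rab7, a GTPase of the late endosome, was the most abundant gene of lysosome fusion and had folds of 1.08 (0.964 to 1.21) and 0.910 (0.815 to 1.02), the latter 1.095 with library totals. Epg5, a tether for this fusion, was the gene past 2-fold upwards at 48 h, from 14 reads in the control pool and 35 in the APAP pool (fold 2.19, 1.15 to 4.40). At 24 h, with 18 reads in each pool, the fold was 0.749 (0.368 to 1.53), and against the 24 h control pool the fold at 48 h was 1.60 (0.884 to 3.01).

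Among the genes of transcriptional and nutrient control, Depp1, listed under the older symbol 8430408G22Rik, was at least 2-fold lower at both times. It is known as a target of FOXO transcription factors that is induced by fasting. Depp1 (8430408G22Rik) had 281 and 353 normalized counts in the control pools and 129.5 and 102 after APAP. Its fold was 0.461 (0.374 to 0.567) at 24 h and, at 48 h, 0.290 (0.231 to 0.361), and every APAP value was below every control value. With library totals the fold at 24 h was 0.525 (0.426 to 0.645), no longer past 2-fold. Its 3′ end overlaps Rassf4 on the opposite strand. Trp53inp2, which encodes a protein that binds LC3 and moves between nucleus and autophagosome, was the most abundant gene of this group. Its fold was 1.59 (1.36 to 1.86) at 24 h, and at 48 h it was 0.927 (0.802 to 1.07) with size factors and 1.11 with library totals. As with Map1lc3b, its control pools differed (1.41-fold, 1.19 to 1.66), and the 24 h APAP pool against the 48 h control pool gave 1.13 (0.987 to 1.29).

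**Figure D3:**
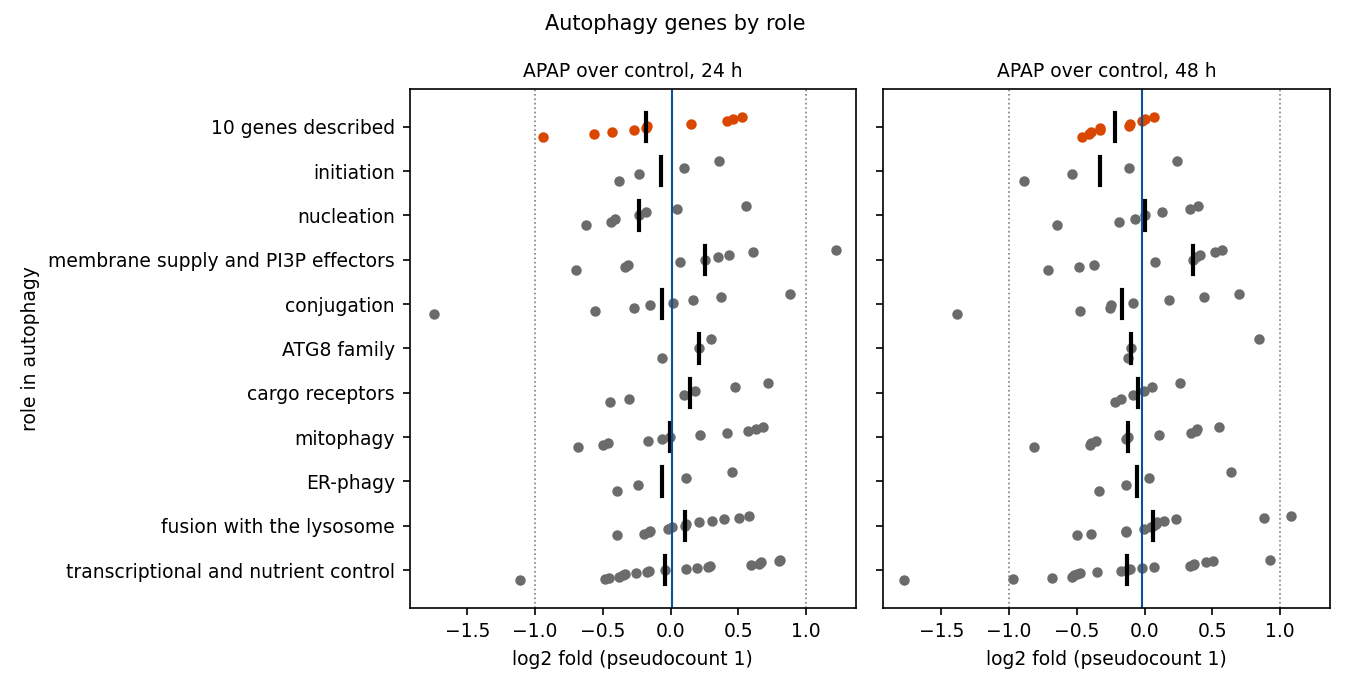
Log2 folds (pseudocount 1) of the 10 genes (orange) and of the 84 further autophagy genes by role (grey), at 24 h (left) and 48 h (right), 1 point per gene. Black bars are group medians, the blue line is the median of the 12113 genes and dotted lines mark 2-fold. Of the 84 genes, 3 at each time lie past a dotted line with an interval off 1, Atg16l2, Depp1 (8430408G22Rik) and Atg2a at 24 h and Atg16l2, Depp1 (8430408G22Rik) and Epg5 at 48 h.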

How the data were processed

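Hepatic RNA of 4 pools was sequenced by MACE, 1 library per group. The authors removed duplicate reads by molecular identifiers, removed low-quality bases with cutadapt, clipped the poly(A)-tails, mapped on mm10 and deposited raw read counts per gene from HTSeq. The mapper and the versions are not given in the sources used here. The deposited table also holds RPM values and the authors' log2 ratios, p-values and FDR values, which were not used.

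Libraries were assigned by their labels. Size factors were computed with DESeq2 1.42.0 and, as an alternative, TMM factors with edgeR 4.0.16 (R 4.3.3), and all else with Python 3.11.15, numpy 2.4.6, scipy 1.17.1 and pandas 2.3.3 (plots with matplotlib 3.10.9). As each group is a single library, neither tool's test was run, and no paired fit exists. A fold is the ratio of normalized counts, with counts of 3 reads or fewer set to 3, and its 95% exact (Clopper-Pearson) interval comes from the reads of both libraries. The ratio of the folds at 24 h and 48 h has a 95% exact conditional interval. A gene was past the threshold at 2-fold or more with an interval off 1, not at the 5-fold used for the whole series. Medians used a pseudocount of 1. Genes averaging 10 or more normalized counts over the 4 libraries (12113) form the background. The procedure was tested on simulated counts with counting error alone and planted changes larger than any fold of the 10 genes. The simulation thus did not cover spread between mice or pools, or the recovery of small folds.

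The 10 genes, the pathway list by role and the marker lists of hepatocytes (pericentral and periportal), macrophages and monocytes, neutrophils, endothelial cells, stellate cells and fibroblasts, cholangiocytes and lymphocytes were chosen with earlier results of these data known. A further marker list is not reported here. Ccpg1, Tf and Ly6g had no matching symbol. Named genes are the 10 genes, the listed genes past the threshold and the most abundant gene of each role, and others are marked where named. Alternatives were TMM factors, library totals, the other control pool or the sum of both, thresholds of 1.5-fold and 5-fold, no condition on the interval, no filter, and other pseudocounts. Positions are from GENCODE M21 (GRCm38), promoters from RefSeq. The last 300 bases of coding transcripts were searched in all transcripts with blastn 2.17.0 (100 bases or more at 95% identity or higher).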

Additional observations from a re-analysis of the deposited data

Results flagged for a closer look

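The ratio of the fold at 48 h to the fold at 24 h had a 95% exact interval off 1 for 9 of the 28 genes named with their values, 2 of them among the 10 genes. Part of these 28 were named for their folds, for their abundance or after their values were seen. The count of 9 can therefore not be set against the shares of all genes. Over all 12113 genes the interval lay above 1 for 8.85% and below 1 for 11%. Among the 84 further autophagy genes it lay above 1 for 4 and below 1 for 8. These intervals compare 4 libraries and not mice, and were not corrected for the number of genes. Among the 10 genes the ratio was 0.727 (0.607 to 0.870) for Map1lc3b, whose control pools differed by 1.41-fold, and 0.548 (0.308 to 0.973) for Atg12, which rests on 45 to 83 reads per library. Among the named genes of the wider list it was below 1 for Sqstm1 (0.574, 0.518 to 0.636), Trp53inp2 (0.583, 0.471 to 0.722), Depp1, listed as 8430408G22Rik (0.628, 0.462 to 0.854), and Rab7 (0.842, 0.717 to 0.988). It was above 1 for Vmp1 (1.20, 1.12 to 1.30), Map1lc3a (1.47, 1.22 to 1.76), which was named after its values were seen, and Epg5 (2.92, 1.08 to 7.92), the last from 14 to 35 reads per library. The other 5 genes of the wider list, chosen by this interval, were Mul1 (above 1) and Rb1cc1, Bnip3l, Snap29 and Sesn1 (below 1). The ratio also moves with the control pools. From 24 h to 48 h these differed, with an interval off 1, for Sqstm1 (0.864), Vmp1 (0.863), Map1lc3a (0.819), Rab7 (1.18), Depp1 (1.26) and Trp53inp2 (1.41). For Rab7 the APAP pools held 621 and 617 normalized counts, and the control pools 574 and 678.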

How the results depend on the processing

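That none of the 10 genes was 2-fold higher, or 2-fold lower at 48 h, held under all 9 alternatives, and that none was 2-fold lower at 24 h held under 8, as 1 gene (Wipi1) was lower at 1.5-fold. The stricter 5-fold threshold could not have changed a count of 0. Leaving out the filter could not either, as all 10 genes passed it. With library totals the number of the 10 genes with both APAP pools below both controls went from 5 to 2 and that above from 1 to 3, while the shares of all genes went from 26.3% to 13.7% and from 24.8% to 44.2% (added after seeing the data), and the median log2 fold turned from -0.18 to 0.00658 at 24 h and from -0.22 to 0.0436 at 48 h. Of the single folds with an interval off 1, Pink1 at 24 h turned to 1.01 with library totals, and against the other control pool Becn1 at 24 h turned to 0.982 and Bnip3 at 48 h to 1.01. Of those whose interval held 1, Pink1, Ulk1 and Becn1 at 48 h turned to 1.11, 1.11 and 1.19 with library totals, Gabarapl1 and Becn1 at 48 h to 0.889 and 1.35 against the other control pool, and the same values to 0.945 and 1.14 against the sum of both. The number of the 10 genes with an interval above 1 went from 2 to 4 at 24 h and from 0 to 3 at 48 h with library totals, that below 1 from 3 to 2 and from 4 to 0, and that higher past 1.5-fold at 24 h from 0 to 3 (also added after seeing the data). TMM factors moved no fold or ratio of folds of the 10 genes beyond its interval, but put the interval of Gabarapl1 at 24 h above 1 and let that of Atg7 at 48 h reach 1. In the wider list, genes higher at 24 h (1) were 4 with library totals, 0 with the other control pool or the sum of both, 8 at 1.5-fold and 0 at 5-fold. Genes higher at 48 h (1) were 4, 2, 0, 5 and 0 under these alternatives. Genes lower at 24 h (2) were 1 with library totals, 4 with the other control pool, 4 at 1.5-fold and 0 at 5-fold, and those lower at 48 h (2) were 6 at 1.5-fold and 0 at 5-fold. The share of all genes past 2-fold is not given for library totals, the other control pool or the sum of both. Without it, the wider-list counts under these settings cannot be read as a result about autophagy genes. The median log2 fold of the wider list was 0.216 (24 h) and 0.215 (48 h) with library totals, -0.0297 (24 h) with the sum of both controls and 0.0235 (48 h) with the other control pool. The cause of these moves beyond the change of scale, threshold or control was not tested. Depth limits Ulk1 and Atg12 most, with 45 to 83 reads per library. No paired analysis was possible because each group is 1 library.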
